A study of Mus musculus with 24 samples.

Results

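Genes that carry fat from the bloodstream into adipocytes and build it into triglyceride were examined in epididymal white fat, a visceral depot of the mouse. The set holds 10 genes chosen by name: Lpl, Gpihbp1, Cd36, Vldlr, Acsl1, Gpam, Agpat2, Lpin1, Dgat1 and Dgat2. A probe set was annotated to 9 of them, each to exactly 1, out of 19938 named genes on the array. Acsl1, an acyl-CoA synthetase that activates fatty acids, had no probe set under its name or identifier in the annotation used and was not analysed here.

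The mice were wild-type C57Bl/6 males, 24 in all, in 4 groups of 6. Conventional mice carried gut bacteria and germ-free mice were kept sterile. Each kind received either lard, a fat of mostly saturated and monounsaturated fatty acids, or menhaden fish oil, a source of omega-3 fatty acids. Both diets gave 45% of energy as fat, were started at 11 weeks of age and lasted 11 weeks, and all mice were fasted for 4 h before the fat was taken. No group received a low-fat diet, so every difference is between 2 high-fat diets or between 2 bacterial states on the same diet, and bacterial status cannot be told apart from the colony a mouse came from. Each mouse gave 1 array, so that p-values measure the spread between mice.

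Triglyceride reaches adipocytes inside lipoproteins. Lipoprotein lipase, held on the capillary wall by GPIHBP1, releases fatty acids, which enter through CD36 among other carriers. The VLDL receptor binds the same triglyceride-rich particles and takes them up. Inside the cell fatty acids are activated to acyl-CoA and added in turn to glycerol 3-phosphate by GPAT (Gpam) and AGPAT2. Lipin 1 then removes the phosphate, and DGAT1 or DGAT2 adds the last acyl chain.

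Promoter sequences are shown for the genes of the set whose levels changed with diet and that the sequence table (RefSeq, GRCm38.p6) holds: 1 start site each of Gpam and Lpin1, which were lower with lard in conventional mice, and of Vldlr, which was higher with lard in germ-free mice. The table held windows for 6 of the 10 genes. Each sequence lies just upstream of a start site and runs 5′ to 3′ on the gene's own strand. The Gpam and Lpin1 windows lie inside the genes as annotated (chr19:55067635-55127319 and chr12:16535669-16653903), each upstream of an internal start site. The Vldlr window lies outside its gene. Capitals mark exact matches on either strand to 5 motifs. The first, AGGTCA, is a half-site of nuclear receptors such as PPARγ. The E-box was searched as CACGTG, the letters of the palindrome. The GC box was searched as GGGCGG, which reads as its reverse complement where it lies on the other strand. The remaining motifs were the CCAAT box by those letters and the TATA box, spelled as TATAAA.
Gpam, chr19:55099478-55099727, minus strand: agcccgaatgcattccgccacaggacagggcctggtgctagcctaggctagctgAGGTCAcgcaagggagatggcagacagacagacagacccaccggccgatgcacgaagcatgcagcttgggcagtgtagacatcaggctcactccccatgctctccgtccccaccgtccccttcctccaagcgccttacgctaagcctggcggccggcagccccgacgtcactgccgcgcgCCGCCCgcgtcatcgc
Lpin1, chr12:16610967-16611216, minus strand: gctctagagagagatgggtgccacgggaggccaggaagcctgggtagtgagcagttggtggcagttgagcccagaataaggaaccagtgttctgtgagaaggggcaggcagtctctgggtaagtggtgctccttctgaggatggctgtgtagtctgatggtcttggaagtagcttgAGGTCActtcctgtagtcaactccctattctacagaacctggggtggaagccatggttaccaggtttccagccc
Vldlr, chr19:27216234-27216479, plus strand: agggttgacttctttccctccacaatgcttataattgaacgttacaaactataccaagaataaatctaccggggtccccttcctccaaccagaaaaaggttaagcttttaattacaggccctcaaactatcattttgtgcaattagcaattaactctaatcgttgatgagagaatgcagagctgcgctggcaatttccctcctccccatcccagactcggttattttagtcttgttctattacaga
The nuclear receptor half-site lay at position -196 from the start in the Gpam window and at -74 in the Lpin1 window, and Gpam also held a GC box at -16. The Vldlr window held none of the motifs. The table has 1 more window for Gpam, of which the 169 bases outside the gene held none of the motifs, and 1 more for Vldlr, with a CCAAT box at -78 and a GC box at -42. Of all 32851 windows of 250 bases in the table, 14.0% held the half-site, 32.7% a GC box, 33.8% a CCAAT box, 12.4% a TATA box and 6.02% an E-box, so that these matches are common and describe only the letters.

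The deposited values are log2 signals on which 1 unit is a doubling, and they ran from 2.19 to 14.59 over all probe sets, with array medians from 7.09 to 7.20. Arrays of the same group correlated from 0.979 to 0.995. Lard-fed conventional mice 5 and 6 stood apart from mice 1 to 4. The mean of 13 mature adipocyte markers was 11.64 and 11.61 log2 in them, against 12.06 to 12.15 in mice 1 to 4. Results of the 9 genes that rest on conventional mice 5 and 6 are given with and without them. Lard-fed germ-free mice 1 and 2 also had low adipocyte means, 11.80 and 11.72, against 11.99 to 12.18 in mice 3 to 6. No alternative left out that germ-free pair together. In lard-fed germ-free mice an intestinal epithelium list reached 10.36 for mouse 4, 6.93 for mouse 5 and 6.81 for mouse 2, while mice 1, 3 and 6 had 5.79 to 6.33. The mean of 18 liver markers was 9.18 ± 0.50 log2 (SD, n = 6) where germ-free mice ate fish oil, and the other 3 groups had means of 7.34 to 7.68. The tissue bore adipocyte markers throughout, with Adipoq (adiponectin) from 12.60 to 13.75 log2 and Plin1 (perilipin 1) from 12.15 to 12.89.

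**Figure D1:**
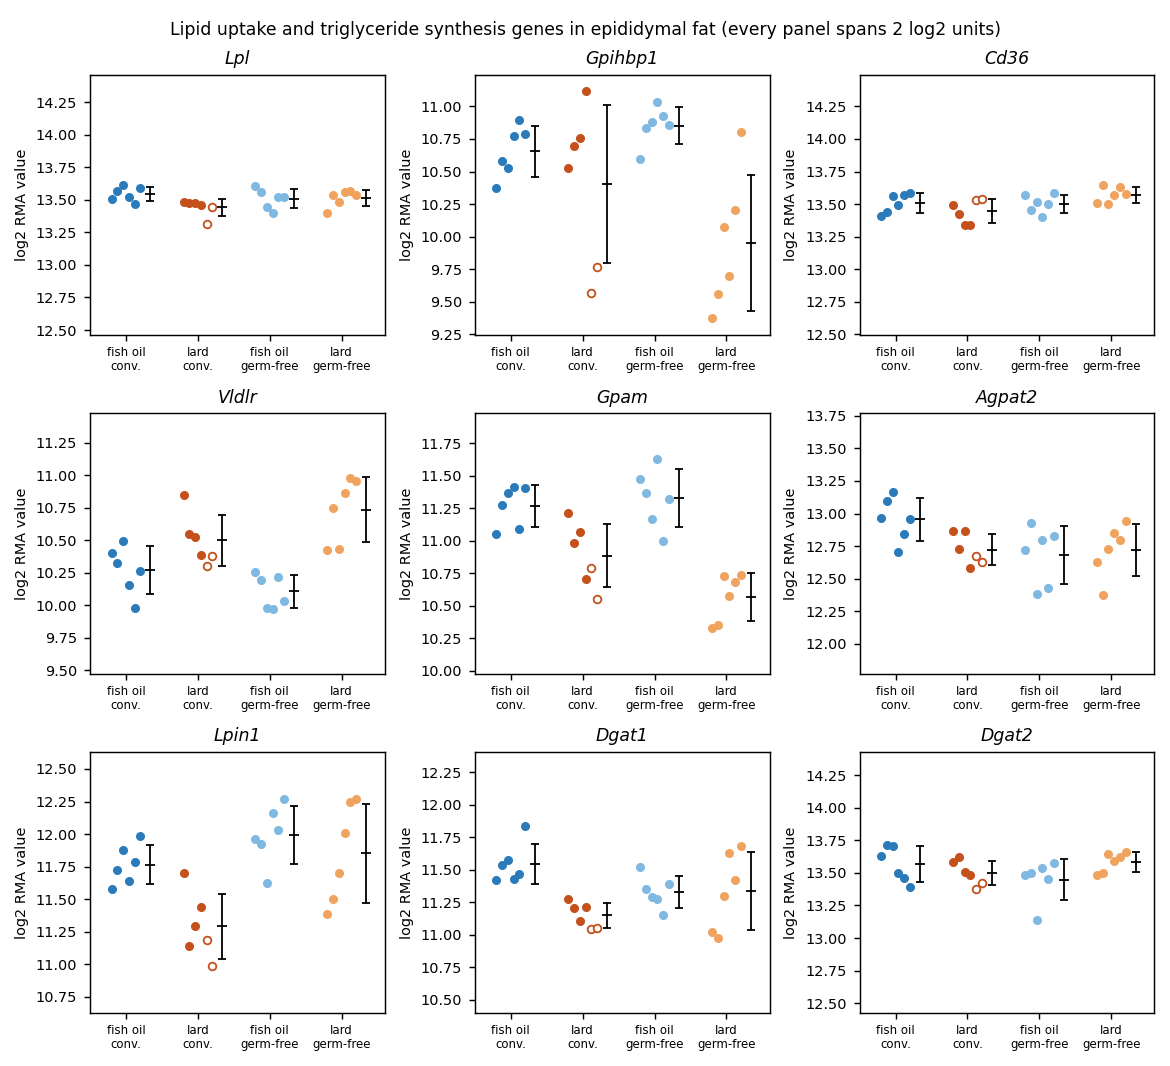
Log2 RMA value of each of the 9 genes (vertical axis, spanning 2 log2 units in every panel) in the 4 groups (horizontal axis). Points are single mice, hollow points are lard-fed conventional mice 5 and 6, and black bars are the mean ± SD of 6 mice. Lpl, Cd36 and Dgat2 lay in narrow bands, Gpam was lower in lard-fed groups, and Gpihbp1 spread from 9.56 to 11.12 in lard-fed conventional mice and from 9.37 to 10.80 in lard-fed germ-free mice.

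Across the 24 arrays Lpl, Cd36 and Dgat2 varied least of the 9. Their SDs, 0.07, 0.08 and 0.13 log2, lay at the 0.3, 1.0 and 15.1 percentile of all genes. Their mean signals, 13.50, 13.51 and 13.52 log2, were each at the 99.9 percentile. Genes with a mean of at least 13 log2, 73 in number, had a median SD of 0.13, against 0.18 for all genes. The SD of Dgat2 was thus ordinary for its level. Gpihbp1, with an SD of 0.52, was the most variable of the 9.

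With lard, 3 of the 9 genes were lower than with fish oil in conventional mice, all of them enzymes of the synthesis route: Gpam, Lpin1 and Dgat1. The 4 genes of capture and uptake, with Agpat2 and Dgat2, did not pass the threshold, a limma p of 0.05 after Benjamini-Hochberg adjustment over all 19938 genes. Over the whole array 31.0% of genes passed in this comparison, 15.4% higher and 15.6% lower, so that the share of the 9 that passed in either direction was close to the background. The median change of the 9 was -0.23 log2, against -0.04 for all genes. RNA was taken from whole fat, and fewer cells of a type cannot be told apart from less RNA per cell. Beside these genes 12 of 13 adipocyte markers were lower and 1 higher with lard, with list means of 12.34 to 12.58 log2 in fish oil-fed and 11.61 to 12.15 in lard-fed conventional mice. Markers of macrophages were higher in 11 of 14 (9.75 to 10.14 with fish oil, 10.28 to 10.94 with lard), those of lipid-associated macrophages in 9 of 9 (9.30 to 10.93 and 10.89 to 12.37), and those of mesothelium, the lining of the depot, were lower in 8 of 9 (8.35 to 9.44 and 7.80 to 8.47). The part of these cell types in the changes of the 9 genes was not tested.

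Dgat1, which catalyses the last acylation, ran from 11.43 to 11.83 log2 (median 11.51) in fish oil-fed conventional mice and from 11.05 to 11.28 (median 11.16) in lard-fed ones. All 6 lard-fed mice lay below all 6 fish oil-fed mice, as 14.6% of all genes also separated in 1 direction or the other. The change was -0.39 ± 0.10 log2 (SE), or 1.31-fold lower (limma adjusted p = 0.0043), and -0.34 without mice 5 and 6 (adjusted p = 0.0351). Lpin1, the phosphatase that makes diacylglycerol and is also a coregulator of transcription, ran from 11.58 to 11.98 (median 11.75) with fish oil and from 10.98 to 11.70 (median 11.24) with lard. The groups overlapped through lard-fed mouse 1, the highest of its group. Its change was -0.47 ± 0.14 log2, 1.39-fold lower (limma adjusted p = 0.012).

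Gpam encodes the mitochondrial GPAT that takes the first step. It ran from 11.05 to 11.41 log2 (median 11.32) with fish oil and from 10.55 to 11.21 (median 10.88) with lard in conventional mice. The groups overlapped, and each lard-fed mouse lay below the fish oil mean. The change was -0.38 ± 0.11 log2, 1.30-fold lower (limma adjusted p = 0.011). Without mice 5 and 6 neither Gpam (-0.28, adjusted p = 0.104) nor Lpin1 (-0.37, adjusted p = 0.0947) passed, which left Dgat1 as the 1 gene of the 9 that did.

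None of the 9 estimated changes in conventional mice reached 1.5-fold. Agpat2, which adds the second acyl chain and whose loss causes lipodystrophy, had a median of 12.96 log2 with fish oil and 12.70 with lard, a difference of -0.23 (95% interval -0.44 to -0.02, limma adjusted p = 0.085). With each array centred on its median Agpat2 (-0.27, adjusted p = 0.0352) and Lpl (-0.14, adjusted p = 0.0233) also passed, and without fish oil-fed conventional mouse 4 Agpat2 passed (-0.28, adjusted p = 0.0416). Dgat2, the other enzyme of the last step, had medians of 13.57 and 13.50, with an interval for the difference of -0.22 to 0.08. Both isoforms thus had a lower mean with lard but not by the same amount: the within-array difference of Dgat2 and Dgat1 was 0.33 log2 larger with lard than with fish oil (exact permutation test, two-sided, p = 0.0022, the smallest that 6 against 6 allows, adjusted p = 0.0115 over 16 tests of 4 pairs in 4 comparisons). The test compares array signals, not transcript numbers, and Dgat2 had the higher signal (mean 13.52 log2, against 11.34 for Dgat1). Genes with a mean of at least 13 log2 had a median absolute change of 0.17 in this comparison, against 0.13 for all genes.

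Lpl itself, the lipase, ran from 13.47 to 13.61 log2 (median 13.55) with fish oil and from 13.31 to 13.49 (median 13.47) with lard in conventional mice. Its difference of -0.10 had an interval of -0.20 to -0.01 and an adjusted p of 0.105 (limma). Cd36, the fatty acid translocase, had medians of 13.53 and 13.46 and an interval of -0.17 to 0.04. Vldlr, the VLDL receptor, had medians of 10.29 and 10.46, a difference of 0.23 (interval 0.01 to 0.45, limma adjusted p = 0.11), with 6 of 6 lard-fed mice above the fish oil mean. Within arrays the difference of Cd36 and Vldlr changed by -0.29 log2 with lard (exact permutation test, two-sided, p = 0.0433, adjusted p = 0.115 over the 16 tests). Without mice 5 and 6 the change was -0.42 and passed (adjusted p = 0.0381). The intervals refer to the array signal and set no bound on the change in transcript number.

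Gpihbp1, made by capillary endothelium, split the lard-fed conventional mice. Mice 1 to 4 had 10.53 to 11.12 log2, within or above the fish oil-fed range of 10.37 to 10.89, whereas mice 5 and 6 had 9.56 and 9.77. The difference between diets was -0.25 ± 0.22 (limma adjusted p = 0.43) with all mice and 0.12 (adjusted p = 0.732) without these 2, so that its sign rested on them. Their endothelial marker means were 9.53 and 9.85 log2, against 9.69 to 10.32 in mice 1 to 4. The part of endothelial content in the Gpihbp1 values was not tested.

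In germ-free mice 3 of the 9 genes passed. Vldlr was higher with lard, and Gpihbp1 and Gpam were lower; Lpin1, Agpat2, Dgat1, Dgat2, Lpl and Cd36 did not pass. Over all genes 47.5% passed, 20.4% higher and 27.1% lower, so again the share of the 9 did not exceed the background. The median change of the 9 was 0.01 log2, against -0.08 for all genes. Adipocyte markers were lower with lard here too, 10 of 13, with 1 higher and list means of 12.24 to 12.41 with fish oil and 11.72 to 12.18 with lard. Mesothelium markers were lower in 6 of 9 (8.72 to 9.47 and 8.01 to 9.01) and lipid-associated macrophage markers higher in 5 of 9 (11.01 to 11.59 and 11.57 to 12.48), and the part of these cell types in the changes was not tested.

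Within the germ-free state, Vldlr ran from 9.97 to 10.25 log2 (median 10.11) with fish oil and from 10.42 to 10.98 (median 10.81) with lard, with no overlap, as held for 24.5% of all genes. The change was 0.63 ± 0.11 log2, 1.54-fold (limma adjusted p = 5.2e-05). Leaving out germ-free mice 2, 4 and 5 of the lard group gave 0.50 (adjusted p = 0.00658). Vldlr is also made by macrophages and endothelium. Beside it, 11 of 14 macrophage markers were higher and 2 lower with lard in germ-free mice, with list means of 9.72 to 10.32 with fish oil and 10.58 to 10.95 with lard. Their part in the Vldlr change was not tested.

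Gpam ran from 11.00 to 11.63 log2 (median 11.34) with fish oil and from 10.33 to 10.74 (median 10.63) with lard in germ-free mice. These groups did not overlap either. The change was -0.76 ± 0.11 log2, 1.69-fold lower (limma adjusted p = 1.1e-05). The liver also expresses Gpam, and the fish oil-fed germ-free mice were the ones with the high liver transcripts, 8.52 to 9.77 log2 against 6.83 to 8.08 with lard, with Alb (albumin) from 11.70 to 12.88 and from 6.40 to 10.84. With the liver list mean as a covariate the change of Gpam was -0.57 (limma adjusted p = 0.0293). That mean did not overlap between the diets here, so the covariate cannot tell liver content apart from diet. Of the 9 genes Gpam was the 1 that passed by diet under both bacterial states.

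Gpihbp1 ran from 10.59 to 11.03 log2 (median 10.87) with fish oil and from 9.37 to 10.80 (median 9.88) with lard in germ-free mice. Lard-fed mouse 6, at 10.80, lay among the fish oil-fed mice, and the other 5 were below all of them. The change was -0.90 ± 0.22 log2, 1.87-fold lower and the largest of the set in size (limma adjusted p = 0.0019). Of 14 endothelial markers 5 were lower and 0 higher, where 27.1% of all genes were lower and 20.4% higher. The median change of the markers was -0.33 against -0.08 for all genes, with list means of 10.03 to 10.34 log2 with fish oil and 9.38 to 10.47 with lard. Mouse 6 had the highest endothelial mean of its group, 10.47, and mouse 1 the lowest, 9.38, as for Gpihbp1; the part of endothelial content in this change was not tested. In the same mice Lpl differed by 0.01 log2 (interval -0.09 to 0.10). The array signals of the lipase and its anchor, with means of 13.50 and 10.47 over all mice, thus changed unequally (0.91 log2, exact permutation test, two-sided, p = 0.0043, adjusted p = 0.0139 over the 16 tests).

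**Figure D2:**
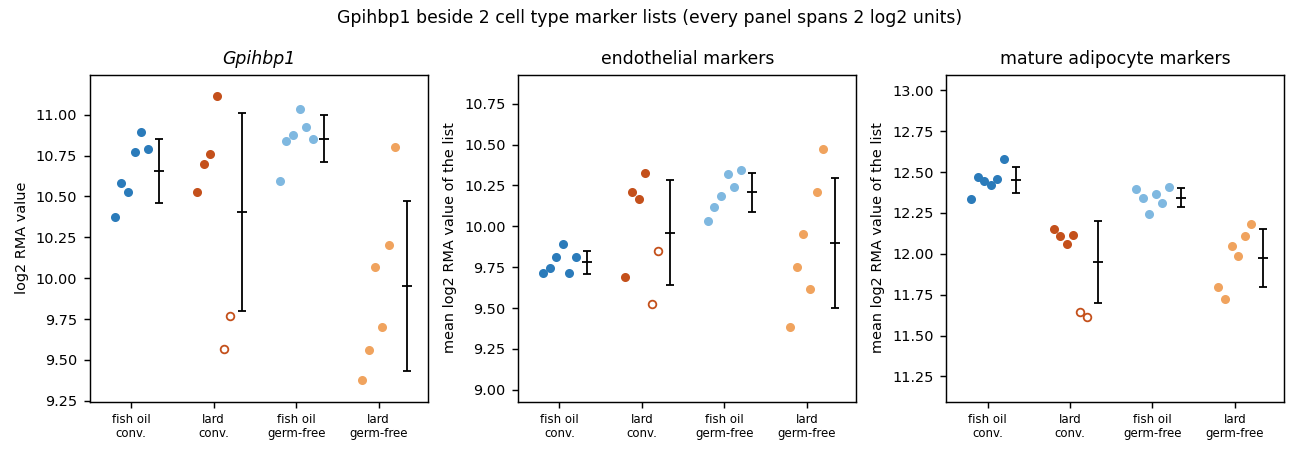
Log2 RMA value of Gpihbp1 (left), and the mean log2 value of 14 endothelial (middle) and 13 mature adipocyte markers (right), on vertical axes that span 2 log2 units, by group. Points are single mice, hollow points are lard-fed conventional mice 5 and 6, and bars are the mean ± SD of 6 mice. The lard-fed germ-free mice spread widely in Gpihbp1 (9.37 to 10.80) and in the endothelial mean (9.38 to 10.47).

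The other synthesis enzymes did not pass in germ-free mice. Dgat1 had medians of 11.32 log2 with fish oil and 11.36 with lard, a difference of 0.01 with an interval of -0.20 to 0.22. Lpin1 differed by -0.14 (interval -0.44 to 0.15), with lard-fed mice spread from 11.39 to 12.27 and fish oil-fed mice from 11.62 to 12.27. Dgat2 differed by 0.14 (interval -0.01 to 0.28) and Agpat2 by 0.04 (interval -0.17 to 0.25). Gpam therefore fell relative to Lpin1 (-0.62 log2, exact permutation test, two-sided, p = 0.0043, adjusted p = 0.0139), and Vldlr rose relative to Cd36 (the difference of Cd36 and Vldlr was 0.56 smaller with lard, a change of -0.56, p = 0.0022 by exact permutation, adjusted p = 0.0115). These tests too compare array signals, and the mean over all mice was 13.51 log2 for Cd36 and 10.40 for Vldlr.

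**Figure D3:**
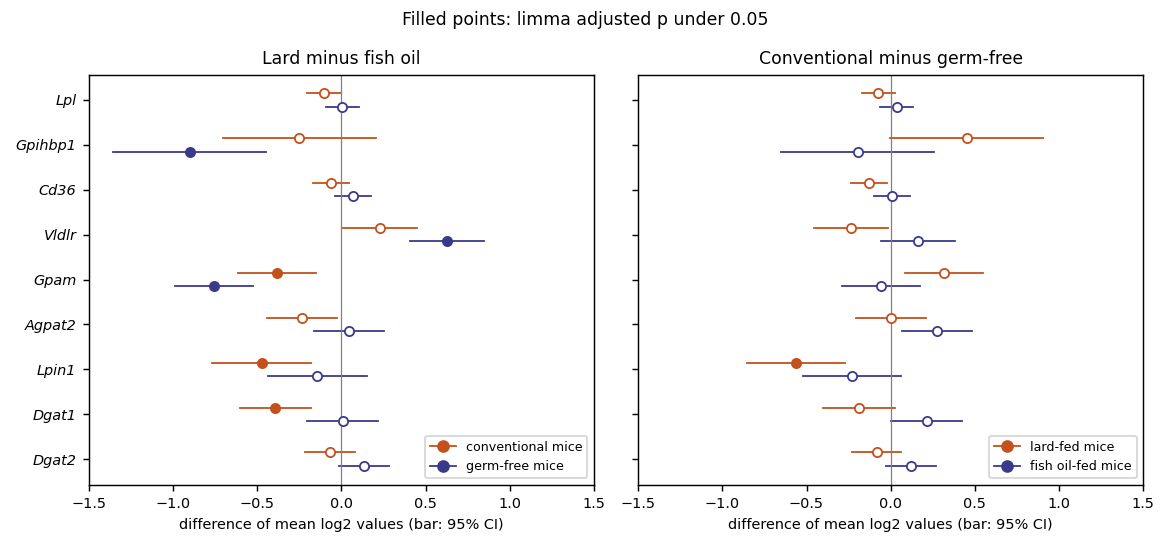
Difference of mean log2 values for each of the 9 genes, lard minus fish oil (left) and conventional minus germ-free (right). Points are estimates from limma, bars are 95% intervals, and filled points passed an adjusted p of 0.05. On the left Gpam is filled under both bacterial states (-0.38 and -0.76), and on the right Lpin1 in lard-fed mice is the 1 filled point (-0.56).

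The diet effects of the 9 genes were then compared between bacterial states by the interaction, which is the change with lard in conventional mice minus that in germ-free mice. With limma 0 of the 9 passed, where 7.2% of all genes did. An unadjusted limma p under 0.05 was found for 4 of the 9 and for 4420 of all 19938 genes. The largest shifts were 0.65 ± 0.31 log2 for Gpihbp1 (adjusted p = 0.22), -0.40 ± 0.14 for Dgat1 (adjusted p = 0.093), -0.40 ± 0.15 for Vldlr (adjusted p = 0.113) and 0.38 ± 0.16 for Gpam (adjusted p = 0.159). Dgat1 passed by diet in conventional and not in germ-free mice, but the difference between these 2 effects did not pass at this threshold. Without lard-fed conventional mice 5 and 6 Gpihbp1 (1.02, adjusted p = 0.00948) and Gpam (0.48, adjusted p = 0.0458) passed. That setting trimmed 1 group only. It kept lard-fed germ-free mice 1 and 2, the lowest of their group in Gpihbp1 (9.37 and 9.56 log2) and Gpam (10.33 and 10.35). With the liver list mean as a covariate Dgat1 (-0.74, adjusted p = 0.023) and Vldlr (-0.67, adjusted p = 0.0495) passed, both over 1.5 times their values without it. The Dgat1 interaction also passed with array weights (-0.41, adjusted p = 0.0414), with each array centred on its median (-0.46, adjusted p = 0.0429), without lard-fed germ-free mouse 1 (-0.47, adjusted p = 0.0449) or mouse 2 (-0.48, adjusted p = 0.0407), and that of Vldlr without lard-fed conventional mouse 1 (-0.47, adjusted p = 0.0416).

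Bacterial status was compared next on each diet. Among lard-fed mice Lpin1 was the 1 gene of the 9 that passed, against 16.3% of all genes, of which 7.48% were lower in conventional mice. It ran from 10.98 to 11.70 log2 in conventional mice and from 11.39 to 12.27 (median 11.85) in germ-free mice, and the groups overlapped. The change was -0.56 ± 0.14 log2, so that Lpin1 was 1.48-fold lower in conventional mice (limma adjusted p = 0.0077). It was -0.46 without conventional mice 5 and 6 (adjusted p = 0.0322) and -0.50 without germ-free mice 2, 4 and 5, where it no longer passed (adjusted p = 0.117). Within arrays Gpam was 0.88 log2 higher relative to Lpin1 in conventional than in germ-free mice fed lard (exact permutation test, two-sided, p = 0.0022, adjusted p = 0.0115).

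Gpam and Gpihbp1 had higher means in lard-fed conventional than germ-free mice, by 0.32 ± 0.11 log2 (limma adjusted p = 0.056) and 0.45 ± 0.22 (adjusted p = 0.18), and neither passed. With all mice Gpam did pass with array weights (0.34, adjusted p = 0.0158), repeated quantile normalization (0.36, adjusted p = 0.0293) and the filter on low values (0.32, adjusted p = 0.0374), and Gpihbp1 with array weights (0.57, adjusted p = 0.0239). Gpam also passed without conventional mouse 6 (0.38, adjusted p = 0.0151), germ-free mouse 3 (0.35, adjusted p = 0.0477) or germ-free mouse 6 (0.35, adjusted p = 0.0442). Gpihbp1 passed without conventional mouse 5 (0.62, adjusted p = 0.0378) or germ-free mouse 6 (0.62, adjusted p = 0.0394). Whether these 2 genes passed thus depended on the processing and on single mice of the lard-fed groups, and both passed without conventional mice 5 and 6 (Gpam 0.42, adjusted p = 0.00963, and Gpihbp1 0.82, adjusted p = 0.00186). That setting kept germ-free mice 1 and 2, which had the lowest values of their group in both genes. Cd36 differed by -0.13 log2 (interval -0.23 to -0.02, adjusted p = 0.104) and by -0.17 without conventional mice 5 and 6 (adjusted p = 0.027). It also passed with all mice under array weights (-0.15, adjusted p = 0.0242), repeated quantile normalization (-0.14, adjusted p = 0.0468) and the liver covariate (-0.15, adjusted p = 0.0408).

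With fish oil 0 of the 9 genes passed by bacterial status with limma, where 12.4% of all genes did. An unadjusted limma p under 0.05 was found for 2 of the 9 and for 5239 of all 19938 genes. Agpat2 came nearest, with 12.70 to 13.16 log2 (median 12.96) in conventional and 12.38 to 12.93 (median 12.76) in germ-free mice, a difference of 0.28 ± 0.10 (limma adjusted p = 0.074). Centring each array on its median gave 0.30 (adjusted p = 0.0423), and it passed without fish oil-fed conventional mouse 4 (0.33, adjusted p = 0.0403) or germ-free mouse 2 (0.33, adjusted p = 0.0369). Dgat1 was 0.21 higher in conventional mice (interval 0.0036 to 0.43, adjusted p = 0.182). Lpl, Cd36 and Dgat2 differed by 0.04, 0.01 and 0.12 log2.

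Ordered by group mean, 2 patterns recurred. Gpihbp1 and Gpam were highest in fish oil-fed germ-free mice (means 10.85 and 11.33), then in fish oil-fed conventional (10.66 and 11.27), lard-fed conventional (10.41 and 10.88) and lard-fed germ-free mice (9.95 and 10.57). Vldlr ran in the opposite order, from 10.73 in lard-fed germ-free to 10.50, 10.27 and 10.11. Groups on the same diet did not pass for any of these 3 genes, and of the step between fish oil-fed and lard-fed conventional mice only that of Gpam did. Lpl, Lpin1 and Dgat1 had their lowest mean in lard-fed conventional mice (13.44, 11.29 and 11.15), as did Cd36 (13.45); Lpl and Cd36 passed in 0 of the comparisons.

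Likeness to other genes was measured as the root mean square difference over the 24 arrays after each gene was centred and scaled to its own SD, so that the value is in SD units and 0 means the same pattern. The genes most like Gpihbp1 were Hrct1 (0.33), Gimap6 (0.34) and Rbp7 (0.34), where the median over all genes was 1.20. Those most like Gpam were Tmem8b (0.40), Ssbp3 (0.41) and Tspo (0.41), and those most like Lpin1 were Acad11 (0.39), Tns1 (0.45) and Foxo1 (0.48). Vldlr was most like Ints7 (0.41), Tbcd (0.41) and Tmem135 (0.42), and Dgat1 most like Klb (0.50), Mfn2 (0.53) and Esr1 (0.54). Dgat2 was most like Dhx32 (0.48), Dmrt2 (0.54) and Kank2 (0.57), and Agpat2 most like Poldip2 (0.57), Olfml1 (0.58) and Dolk (0.61). Cd36 was nearest to Purb (0.44), Ahcyl1 (0.47) and Kdm3a (0.50), and Lpl to Braf (0.56), Arhgef11 (0.57) and Myo6 (0.58). Within the set the closest pair was Gpihbp1 and Gpam (0.73), and no member had another member among its 3 nearest genes.

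The other genes of the route give these members their setting. Of 60 listed, 55 were measured, and with lard 11 were higher and 14 lower in conventional mice, with a median change of 0.03 log2, where 15.4% of all genes were higher and 15.6% lower. In germ-free mice 17 were higher and 16 lower, with a median of 0.01, against the 47.5% of all genes that passed. Several isoforms and feeder enzymes moved further than any of the 9.

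Of 4 genes that supply glycerol 3-phosphate, 3 were lower and 0 higher with lard in conventional mice, and 1 was lower and 1 higher in germ-free mice. Over all genes 15.6% were lower and 15.4% higher in conventional mice, and 27.1% lower and 20.4% higher in germ-free mice. Pck1, phosphoenolpyruvate carboxykinase, which feeds glycerol 3-phosphate synthesis in fat, changed by -1.88 ± 0.29 log2 in conventional (limma adjusted p = 2.0e-05) and -1.48 ± 0.29 in germ-free mice (adjusted p = 0.00019). In both, 6 of 6 lard-fed mice lay below all fish oil-fed mice. Of all genes 14.6% in conventional and 24.5% in germ-free mice also separated in 1 direction or the other. Gpat3, an endoplasmic reticulum GPAT, changed by -1.21 ± 0.13 in conventional mice (adjusted p = 4.7e-07) and by -0.74 ± 0.13 in germ-free mice (adjusted p = 0.000103). Mogat1, which acylates monoacylglycerol, changed by -1.93 ± 0.25 and -1.44 ± 0.25 (adjusted p = 3.6e-06 and 7.4e-05). Gpam thus shared its direction with the other GPAT named here under both bacterial states.

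Other isoforms were higher with lard. Plpp1, a membrane lipid phosphatase, rose by 0.77 ± 0.11 log2 in conventional and 0.63 ± 0.11 in germ-free mice (limma adjusted p = 1.1e-05 and 7.2e-05). Lclat1, an acyltransferase of lysocardiolipin, rose by 0.64 and 1.10, and Agpat4, a relative of Agpat2, by 0.53 and 0.35. Acsl4, an acyl-CoA synthetase with a preference for arachidonate, rose by 0.81 ± 0.13 in germ-free mice (adjusted p = 2.0e-05) and differed by 0.26 in conventional mice (adjusted p = 0.137). Mogat2 rose by 1.00 in germ-free mice (adjusted p = 0.0293) and differed by 0.85 in conventional ones (adjusted p = 0.0845). The acylation step thus held members moving in both directions, 3 higher and 3 lower of 8 under each bacterial state. Of all genes 31.0% passed in conventional and 47.5% in germ-free mice.

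Among the partners of lipoprotein lipase, Pcsk6, a proprotein convertase, changed by -1.04 ± 0.18 log2 with lard in conventional and -0.81 ± 0.18 in germ-free mice (limma adjusted p = 6.4e-05 and 0.00067). Hspg2, perlecan, a heparan sulfate proteoglycan of basement membranes, rose by 0.51 and 0.25. Apoc1 and Apoc3 are apolipoproteins that restrain lipoprotein lipase and are made in quantity by the liver. With lard they changed in the germ-free state by -0.83 and -1.26 log2 (adjusted p = 0.012 and 0.0212). In conventional mice Apoc1 differed by -0.64 and Apoc3 by -0.397 (adjusted p = 0.0664 and 0.538). With fish oil the mean of Apoc1 was 12.32 in conventional and 11.95 in germ-free mice, which had the higher liver marker mean. Apoc3 had 8.13 and 9.24 in the same order, and neither difference by bacterial status passed. With the liver list mean as a covariate 12 of the 55 passed in germ-free mice, in place of 33, and 5723 of all genes, in place of 9468. That mean did not overlap between the diets in germ-free mice (8.52 to 9.77 log2 with fish oil, 6.83 to 8.08 with lard). The covariate therefore cannot tell liver content apart from diet. The part of liver transcripts in these changes was not tested further.

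**Figure D4:**
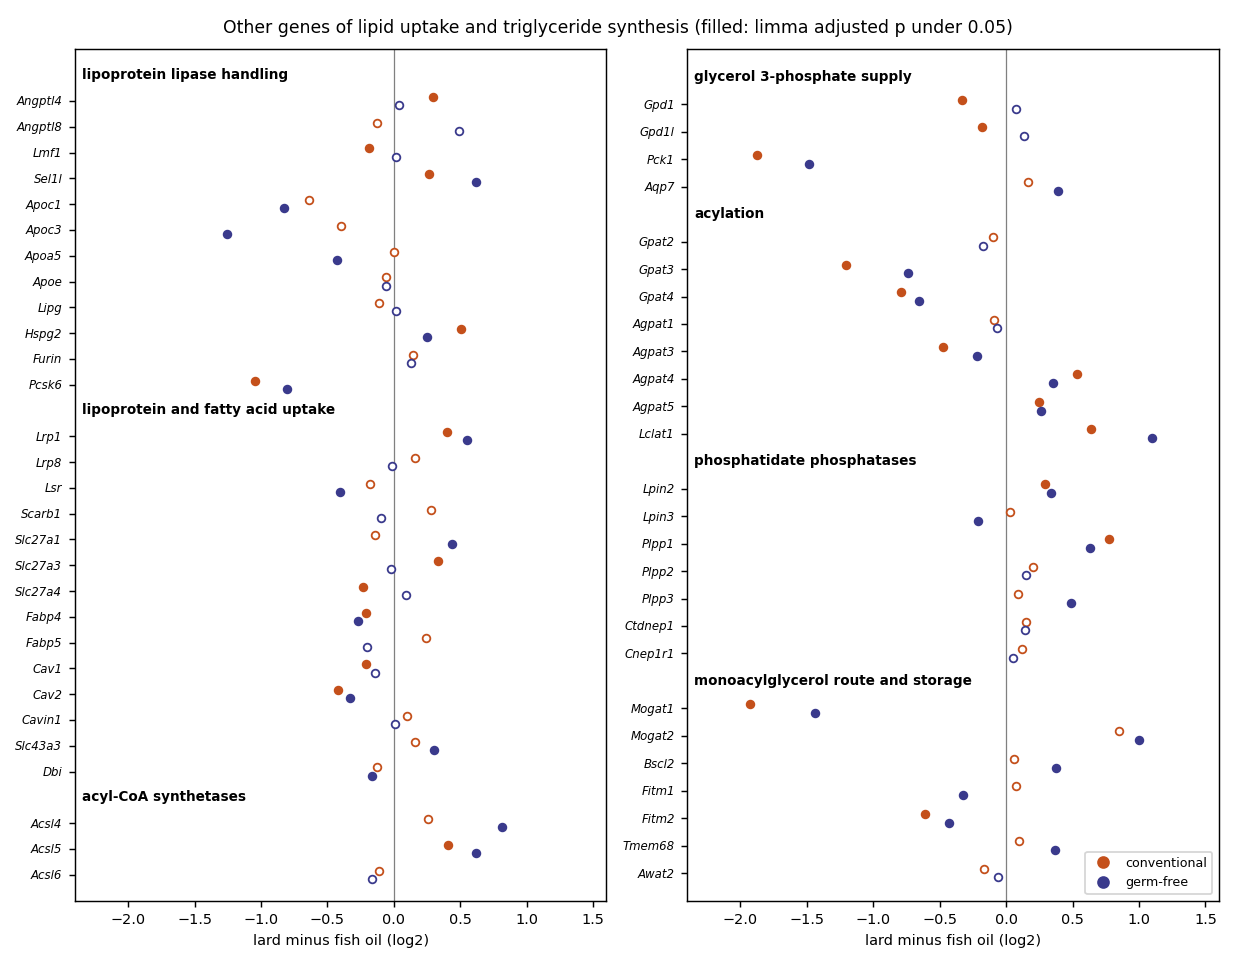
Change with lard (log2, horizontal axis) of the 55 other genes of lipid uptake and triglyceride synthesis, grouped by step, in conventional (orange) and germ-free mice (blue). Filled points passed a limma adjusted p of 0.05. Pck1 (-1.88 and -1.48) and Mogat1 (-1.93 and -1.44) lie farthest left, and Lclat1 reaches 1.10 in germ-free mice.

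By bacterial status 10 of the 55 genes passed among lard-fed mice, 1 higher and 9 lower in conventional mice, where 16.3% of all genes passed. Slc27a1, fatty acid transport protein 1, was lower by -0.81 ± 0.17 log2 (limma adjusted p = 0.0021), Sel1l, needed for lipoprotein lipase to leave the endoplasmic reticulum, by -0.55 ± 0.09 (adjusted p = 0.00041), Lclat1 by -0.45 and Aqp7, the glycerol channel, by -0.41. Fabp5, a fatty acid binding protein also found in macrophages, was the 1 that was higher, by 0.37 (adjusted p = 0.0352). Leaving out germ-free mice 2, 4 and 5 gave a count of 3, with 177 of all genes in place of 3240. Leaving out conventional mice 5 and 6 gave a count of 17, with 5079 of all genes.

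With fish oil 8 of the 55 passed by bacterial status, 4 in each direction, a share near the 12.4% of all genes. Angptl8, an insulin-responsive partner in the inhibition of lipoprotein lipase, was 0.85 ± 0.26 log2 higher in conventional mice (limma adjusted p = 0.033), Gpd1, glycerol 3-phosphate dehydrogenase, 0.36, Agpat3 0.29 and Bscl2 (seipin) 0.26 higher. Apoa5, a liver apolipoprotein, differed by -0.42, Hspg2 by -0.34, Lpin3 by -0.24 and Slc43a3 by -0.21. Liver markers were lower in conventional mice in 15 of 18. The count of 8 was 4 without fish oil-fed conventional mouse 2 or germ-free mouse 6, and 5 without conventional mouse 3 or germ-free mouse 5.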

How the data were processed

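Epididymal fat RNA from 24 mice was hybridised to 1-colour Affymetrix arrays, 1 array per mouse, as the labels describe. The authors deposited log2 values; the submitters' processing notes name RMA (version, annotation and batches: not given in the sources used here). RMA corrects background, equalises array distributions and summarises probes, so a change common to most genes cannot be seen. Medians of the deposited values still differed a little between groups. The number of arrays limits the precision. Of 35556 probe sets, 21789 had 1 gene symbol, 1621 several and 12146 none; 21698 matched a gene identifier of the RefSeq table (GRCm38.p6), and the probe set with the highest mean stood for each of 19938 genes.

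All 24 arrays entered 1 limma fit of the 4 group means (limma 3.58.1, R 4.3.3, eBayes, no filter, 20 residual degrees of freedom), tested on simulated data first. P-values were two-sided and Benjamini-Hochberg adjusted over all genes, and the threshold was 0.05. Exact permutation tests compared pairs of genes within arrays. Named were all measured genes of the set, up to 4 other pathway genes per comparison and direction by size of change among those that passed, with their values under the other bacterial state, and the 3 nearest genes to each of the 9. The set, the pathway and marker lists, and the mice left out in alternatives were chosen with earlier results of these data known. Alternatives varied normalization, filter, probe choice, array weights, eBayes, samples, block, covariate and fold. Mouse numbers were not treated as pairing mice: of 36 same-numbered pairs of mice, 9 had correlated deviations above 0.1 (range -0.50 to 0.35).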

Additional observations from a re-analysis of the deposited data

Results flagged for a closer look

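Single mice stood far from the rest of their group in 5 of 60 groups of 6 examined, for the 9 genes and 6 marker lists, by a gap test that flags about 1 in 20 groups by chance. Lard-fed conventional mouse 5 had the lowest Lpl, 13.31 log2, and was also one of the 2 with low Gpihbp1. Fish oil-fed conventional mouse 6 had the highest Dgat1 of its group, 11.83, and the highest liver marker mean, 8.47. Fish oil-fed germ-free mouse 3 had the lowest Dgat2, 13.14. Lard-fed germ-free mouse 4 had an intestinal epithelium mean of 10.36.

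Of the 55 other genes of the route 4 had a diet effect that differed between bacterial states by the limma interaction (lard over fish oil in conventional minus that in germ-free mice). That share was near the 7.2% of all genes that passed. The values were 0.43 log2 for Apoa5 (adjusted p = 0.0228), -0.40 for Plpp3, a lipid phosphate phosphatase (adjusted p = 0.0111), -0.32 for Bscl2 (adjusted p = 0.0227) and -0.32 for Gpd1l (adjusted p = 0.0374). Apoa5, a liver apolipoprotein, changed with lard by -0.43 in the germ-free and 0.0009 in the conventional state. Its mean was highest where liver markers were also highest, in the germ-free group given fish oil (7.82 log2). The part of liver transcripts in the Apoa5 value was not tested further. In lard-fed conventional mice Fabp5 lay above the fish oil mean in every mouse, and in lard-fed germ-free mice below it in every mouse. The interaction for Fabp5 was 0.44 (adjusted p = 0.119), so the difference did not pass.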

How the results depend on the processing

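The direction of every member call held under all alternatives, and the germ-free diet calls passed in all 24: Gpihbp1 (-1.07 to -0.77), Vldlr (0.50 to 0.87) and Gpam (-0.89 to -0.57). Counts are given in the order conventional diet, germ-free diet, lard status, fish oil status, interaction, for those that moved by over 1.5 times. Of the 9 genes, 3 passed by diet in conventional mice, against 5 with arrays centred on the median, 1 without lard-fed conventional mice 5 and 6 and 0 at 1.5-fold; 1 passed by status with lard, against 3 with repeated quantile normalization, 2 with the low-value filter, 4 with array weights, 4 without conventional mice 5 and 6, 2 with the liver covariate, 0 without germ-free mice 2, 4 and 5, 0 at 1.5-fold and 1 to 3 leaving out single mice; 0 passed by status with fish oil, against 1 centred and 0 to 1 leaving out mice; and 0 in the interaction, against 1 centred, 1 weighted, 2 without conventional mice 5 and 6, 2 with the liver covariate and 0 to 1 leaving out mice. Of the 55, 25 became 8 at 1.5-fold; 33 became 12 with the liver covariate and 13 at 1.5-fold; 10 became 17 without conventional mice 5 and 6, 3 without germ-free mice 2, 4 and 5 and 1 at 1.5-fold; 8 became 14 with only the compared groups, 4 with the covariate, 1 at 1.5-fold and 4 to 8 leaving out mice; and 4 became 10 centred, 11 weighted, 11 without conventional mice 5 and 6, 0 without germ-free mice 2, 4 and 5, 8 with the covariate, 0 at 1.5-fold and 3 to 9 leaving out mice. Of all genes, 6178 became 1627 at 1.5-fold; 9468 became 5278 without germ-free mice 2, 4 and 5, 5723 with the covariate and 1985 at 1.5-fold; 3240 became 5033 weighted, 5079 without conventional mice 5 and 6, 177 without germ-free mice 2, 4 and 5 and 294 at 1.5-fold; 2464 became 1570 with the covariate and 361 at 1.5-fold; and 1435 became 2526 weighted, 2710 without conventional mice 5 and 6, 225 without germ-free mice 2, 4 and 5, 385 at 1.5-fold and 861 to 2070 leaving out mice. The cause was not tested, except that 1.5-fold asks for larger changes. Mouse numbers do not pair the mice (in 5 of 36 same-numbered pairs the own number gave the highest correlation), and the replicate block left 3, 3, 1, 0 and 0 of the 9 genes past the threshold.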
